A study of Homo sapiens with 4 samples.

Results

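Respiratory complex I is built from nuclear-encoded subunits whose genes are named NDUFA, NDUFB, NDUFC, NDUFS and NDUFV, and from subunits encoded in mitochondrial DNA. The genes described here are all rows of the count table whose whole name is one of those 5 stems followed by digits only, which gave 37 of 56809 gene rows. All 37 passed the filter on low counts, which kept 17885 genes. The rule used names only and no measured value. The cells were NCI-H929, an established human multiple myeloma line, here expressing the nuclease Cas9, and every group therefore carried Cas9. The KO group (n = 2 libraries) carried a construct for doxycycline-inducible knockout of BCL7A, which encodes a component of the SWI/SNF (BAF) chromatin remodellers. The control group (n = 2 libraries) carried a control construct according to the treatment protocol, although its titles and genotype label name it wild type. Both groups underwent puromycin selection over 3 days and then a 24 h exposure to doxycycline (0.5 ug/ml), after which poly(A) RNA was made into stranded libraries. Each group is 1 line, no label says that its 2 libraries came from separate cultures, and p-values therefore measure no more than the library-to-library spread, which may be technical.

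Complex I (NADH:ubiquinone oxidoreductase) is the entry point of electrons from NADH into the mitochondrial respiratory chain, and it pumps protons across the inner membrane while it passes those electrons to ubiquinone. It is L-shaped: a peripheral arm in the matrix holds the N module, which oxidises NADH, and the Q module, which reduces ubiquinone, and a membrane arm with a proximal and a distal part holds the proton pumps. The core subunits carry the cofactors and the catalytic sites, and the remaining supernumerary subunits surround them and are needed for assembly or stability. Plasma cells and myeloma cells secrete or make large amounts of immunoglobulin, and oxidative phosphorylation is among their sources of ATP. The genes below are grouped by module.

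The KO libraries held 38671744 and 40799624 gene counts, and the controls, at 17567202 and 20153596, were shallower, so depth and group went together. Levels are given in CPM (counts divided by the TMM-scaled library size), and log2 fold changes (KO relative to control) come from edgeR's quasi-likelihood test, with Benjamini-Hochberg adjustment over all 17885 tested genes and a threshold of 0.05. BCL7A itself stood at 1.31 and 1.19 CPM in the KO libraries and at 42.9 and 45.7 CPM in the controls (log2 fold change of -5.15 with SE 0.11, adjusted p = 3.51e-25). The 10 plasma cell markers summed to 12737 and 12729 CPM in the KO and 7141 and 7183 CPM in the control libraries, and FGFR3 and NSD2, the genes that the t(4;14) translocation of this line places under immunoglobulin control, to 1399 and 1423 against 1108 and 1081 CPM. All 10 plasma cell markers rose. So did 36.4% of all tested genes and 57.1% of those whose mean level was at least that of the lowest complex I subunit. The 8 mature B cell markers summed to 32.8 and 34.7 CPM in the KO and 127 and 133 CPM in the control libraries. Members of that list went both ways: CD79B rose (0.74 on the log2 scale) and made up most of the KO sum, and CD79A (-8.95), PAX5 (-6.23), MS4A1 (-3.72) and FCER2 (-0.90) fell. The T cell markers (5 genes) summed to 14.7 to 15.0 CPM in the KO and 25.5 to 26.5 CPM in the control libraries, the epithelial markers (5 genes) to 12.0 to 12.6 and 66.1 to 70.9 CPM, the erythroid markers (4 genes) to 0.190 to 0.513 and 4.29 to 4.42 CPM, and the myeloid markers (5 genes) to 0.731 to 1.20 and 0.207 to 0.225 CPM. Of the epithelial markers, KRT18 rose (1.78) and EPCAM, at 51.4 and 54.4 CPM in the control libraries, and KRT8 (-2.83) fell. CD3D, MPO and KRT19 had no count in any library, and CD22, EPCAM, HBA1 and ALAS2 had none in either KO library. The label names the cells B lymphocytes, of which plasma cells are the secreting form, and the plasma cell markers were present in all 4 libraries. Each of these sums differed between the groups, and their part in the results below was not tested.

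Most complex I subunits were higher in the BCL7A KO libraries. Of the 37 subunits, 34 rose, 1 (NDUFA9) fell, and 2 (NDUFA3 and NDUFB2) did not pass the test. The background was high in this comparison: 76.2% of all tested genes passed in either direction, 36.4% as higher and 39.8% as lower. Among the 8558 tested genes whose mean level was at least that of the lowest subunit, 57.1% rose and 29.9% fell, against 34 of 37 and 1 of 37 subunits. The median log2 fold change of the subunits was 0.47, against -0.06 over all tested genes and 0.22 over the genes of at least that level. For 35 subunits both KO libraries lay above both control libraries, a pattern that 41.3% of all tested genes and 60.3% of those of at least that level showed; for NDUFA9 both lay below (46.1% of all tested genes), and for NDUFB2 the groups overlapped. Rises of at least 2-fold were found for 5 subunits, among them NDUFS5, NDUFA2, NDUFA6 and NDUFS4, against 9.47% of all tested genes and 9.50% of those of at least the lowest subunit's level; with upper-quartile factors NDUFS5 was the 1 left, with a log2 fold change of 1.20. On GRCh38 the genes named lie on chromosome 1, 39026318 to 39034636, plus strand (NDUFS5), chromosome 5, 140638740 to 140647785, minus strand (NDUFA2), chromosome 22, 42085525 to 42090955, minus strand (NDUFA6), chromosome 5, 53560633 to 53683340, plus strand (NDUFS4). In poly(A) RNA from a bulk culture, fewer cells of a kind and less RNA per cell cannot be told apart.

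The summed level of the 37 subunits was 2858 and 2821 CPM in the KO libraries and 1926 and 1981 CPM in the control libraries, or 2840 ± 26.5 against 1954 ± 38.7 CPM (SD, n = 2), a ratio of 1.45. The libraries of a group were close to each other and the groups were far apart on this sum. Scaling sets where 0 lies: with upper-quartile factors in place of TMM the median of all tested genes moved from -0.06 to -0.19 and that of the subunits from 0.47 to 0.33, and 28 subunits rose and 2 fell. The 6 rises that this scaling removed were those of NDUFA7, NDUFC2, NDUFB4, NDUFB11, NDUFA5 and NDUFA1, and the fall that it added was that of NDUFB2. DESeq2 called 31 subunits higher, without NDUFA1, NDUFA5 and NDUFB11.

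**Figure D1:**
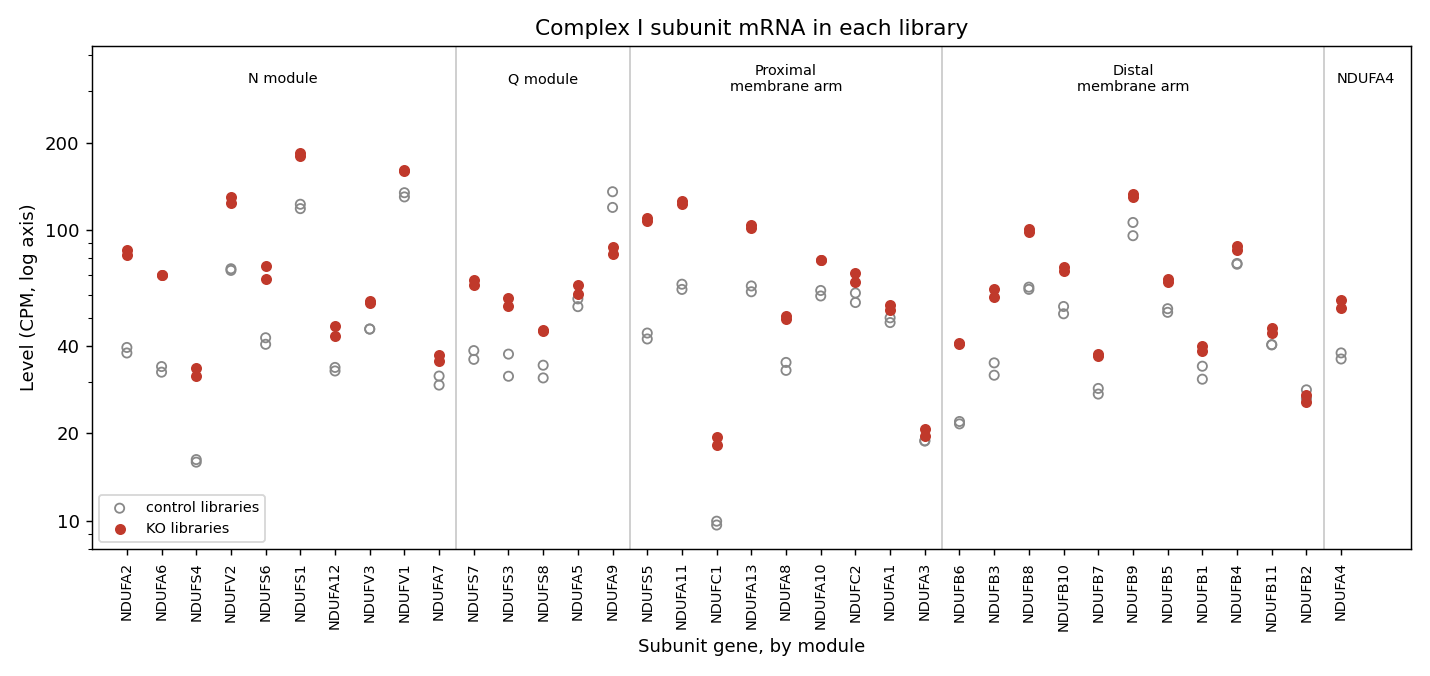
Level of 36 of the 37 subunits in each library (CPM, log axis), grouped by module and ordered by log2 fold change within it; filled points are the 2 KO libraries and open points the 2 control libraries. The filled points lie below the open ones for NDUFA9, among them for NDUFB2, and above them for the other subunits shown.

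**Figure D2:**
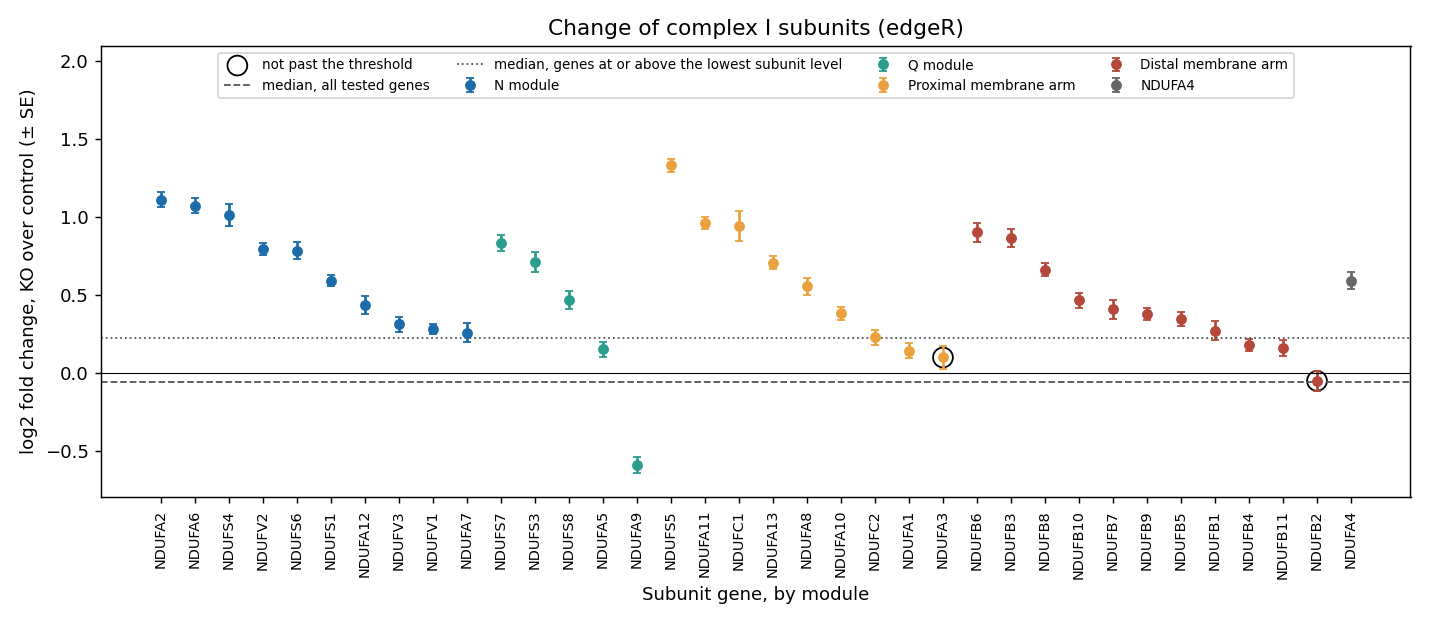
log2 fold change of 36 of the 37 subunits, KO over control, with the standard error as bars; rings mark the 2 subunits not past the threshold, the dashed line is the median of all tested genes (-0.06) and the dotted line that of genes at or above the lowest subunit's level (0.22). Values run from 1.33 for NDUFS5 to -0.59 for NDUFA9.

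Promoter sequence was set beside these values, because several transcription factors are known to bind the promoters of respiratory chain genes. RefSeq promoter windows (GRCh38.p14, 250 bases before to 50 bases after the start site) were found for 31 of the 37 genes; those with none included NDUFA4, NDUFB5, NDUFB9, NDUFC2 and NDUFS5. Exact letters were searched on both strands. The string AAGATGGCG, which resembles a binding site of the factor YY1 and a start codon context known from short-leader mRNAs, was in 6 of 31 subunit windows (19.4%), against 2.14% of the 27305 genes with a window and 4.33% of the 11408 tested genes among them. In all 6 it lay on the gene's own strand, 10 to 25 bases after the start site, and its ATG was the annotated start codon, so each stretch spans the end of the leader and the start of the coding sequence in an exon. The 6 stretches are shown because they include both a subunit that fell, NDUFA9, and 2 that rose at least 2-fold, NDUFA6 and NDUFS4; capitals mark the motif and each stretch is written along its gene's strand.

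NDUFA6, chr22:42090728-42090757, minus strand: atgctttggcAAGATGGCGgggagcggcgt
NDUFS4, chr5:53560650-53560679, plus strand: tgcctgcagcAAGATGGCGgcggtgtcaat
NDUFS7, chr19:1383914-1383943, plus strand: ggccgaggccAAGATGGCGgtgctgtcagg
NDUFB8, chr10:100529835-100529864, minus strand: gaagaaggtgAAGATGGCGgtggccagggc
NDUFA7, chr19:8321342-8321371, minus strand: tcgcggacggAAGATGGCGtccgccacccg
NDUFA9, chr12:4649114-4649143, plus strand: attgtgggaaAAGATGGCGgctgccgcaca

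The log2 fold changes of these 6 genes ran from -0.59 (NDUFA9) to 1.07 (NDUFA6), with a median of 0.75, and those of the 25 genes without the string from -0.05 to 1.11, with a median of 0.46. The ranges overlapped, and genes with the same letters at their start codon lay near both ends of the order.

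The string GCATGCGC, which resembles the site of nuclear respiratory factor 1 (NRF1), was also in 6 of 31 windows (19.4%), against 3.68% of all genes with a window and 6.23% of the tested ones. The 6 stretches, again along the gene's strand and with the motif in capitals (longer capitals are matches on both strands that overlap), are shown because their genes span most of the range of rises.

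NDUFA6, chr22:42090919-42090948, minus strand: ctgtagatgaGCATGCGCagcacccaccgt
NDUFS7, chr19:1383824-1383853, plus strand: tccggtttccGCATGCGCtccgagccgctt
NDUFS6, chr5:1801351-1801380, plus strand: cagaagccgtGCGCATGCgttagcgctaag
NDUFA8, chr9:122159764-122159793, minus strand: gttgccggatGCGCATGCGCaggcgccgtg
NDUFB4, chr3:120596167-120596196, plus strand: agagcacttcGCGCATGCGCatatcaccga
NDUFA5, chr7:123557957-123557986, minus strand: tatgcccatcGCGCATGCgtcaatttttct

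Log2 fold changes of these 6 genes ran from 0.15 (NDUFA5) to 1.07 (NDUFA6), with a median of 0.67, against a median of 0.46 in the 25 genes without the string. NDUFA6 and NDUFS7 held both strings, at separate places. The start sites are those of RefSeq and can differ from GENCODE release 29. By GENCODE the NRF1-like strings of NDUFA6, NDUFS7, NDUFA8 and NDUFA5 lie within the annotated gene, and those of NDUFS6 and NDUFB4 before it. The shares of the other strings lay below those of the tested genes but not always below those of all genes with a window. CCGGAAG (ETS-like) was in 5 subunit windows (16.1%, against 12.2% of all genes with a window and 21.1% of the tested ones), GGGCGG (SP1-like) in 21 (67.7%, against 48.3% and 74.1%) and CCAAT (NFY-like) in 8 (25.8%, against 39.7% and 43.1%). The string TCAAGGTCA (ERR-like) was in none of the 31 windows, in 0.432% of all genes with a window and in 0.289% of the tested ones. These are matches of letters in a fixed window, and binding was not measured.

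The 250 bases before the start site are shown for NDUFA6, the subunit with both strings and the higher rise, and for NDUFA9, the subunit that fell. The capitals in the NDUFA6 stretch mark the NRF1-like string, at position -166 from its RefSeq start site. GENCODE extends the gene to 42090955, past that string. The same stretch, without capitals, holds CCAAT at positions -119 and -53 and GGGCGG, on the other strand, at -91. The NDUFA9 window held none of the searched strings apart from the one at its start codon.

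NDUFA6, chr22:42090773-42091022, minus strand: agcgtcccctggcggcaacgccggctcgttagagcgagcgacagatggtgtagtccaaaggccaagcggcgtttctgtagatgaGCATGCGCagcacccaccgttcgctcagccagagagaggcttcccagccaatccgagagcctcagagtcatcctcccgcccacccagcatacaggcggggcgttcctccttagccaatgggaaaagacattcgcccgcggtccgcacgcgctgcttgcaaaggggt
NDUFA9, chr12:4648864-4649113, plus strand: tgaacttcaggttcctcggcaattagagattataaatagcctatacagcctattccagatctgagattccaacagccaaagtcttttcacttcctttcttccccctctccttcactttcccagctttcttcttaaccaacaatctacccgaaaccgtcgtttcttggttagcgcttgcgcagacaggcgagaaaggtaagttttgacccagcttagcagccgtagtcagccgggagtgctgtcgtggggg

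All 10 genes of the N module, the part of the peripheral arm that takes electrons from NADH, rose, with log2 fold changes from 0.26 to 1.11 and a median of 0.69. Of the tested genes of at least the lowest subunit's level, 57.1% rose, and the median over all of them was 0.22. Their summed level was 869 and 862 CPM in the KO and 565 and 566 CPM in the control libraries, a ratio of 1.53. The largest rises were those of supernumerary subunits, and that of the NADH-binding core subunit NDUFV1 was among the smallest.

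NDUFA2, a small subunit with a thioredoxin-like fold, stood at 85.4 and 81.9 CPM in the KO libraries and at 37.8 and 39.5 CPM in the controls (log2 fold change of 1.11 with SE 0.05, adjusted p = 2.96e-18), a 2.16-fold difference. NDUFA6, an LYR-motif protein that anchors an acyl carrier protein to the arm, stood at 69.9 and 70.1 CPM in the KO libraries and at 32.5 and 34.0 CPM in the controls (log2 fold change of 1.07 with SE 0.05, adjusted p = 2.01e-17). NDUFS4, whose loss is a known cause of Leigh syndrome, stood at 33.5 and 31.6 CPM in the KO libraries and at 15.9 and 16.3 CPM in the controls (log2 fold change of 1.01 with SE 0.07, adjusted p = 2.56e-13). For all 3 genes the KO libraries lay close together and well above both controls. Among the core subunits, NDUFV1, which binds NADH and FMN, stood at 160 and 161 CPM in the KO libraries and at 135 and 130 CPM in the controls (log2 fold change of 0.28 with SE 0.03, adjusted p = 9.30e-09). NDUFV2, which holds an iron-sulphur cluster near it, stood at 124 and 130 CPM in the KO libraries and at 73.7 and 72.7 CPM in the controls (log2 fold change of 0.80 with SE 0.04, adjusted p = 6.86e-17). NDUFS1, the largest subunit and the carrier of several clusters, stood at 180 and 184 CPM in the KO libraries and at 119 and 123 CPM in the controls (log2 fold change of 0.59 with SE 0.03, adjusted p = 1.26e-15). The KO libraries were above the control libraries for all 3, by a smaller margin for NDUFV1 than for its partner NDUFV2. Of the other N module genes, NDUFS6, a zinc-binding subunit, rose by 0.78, SE 0.05 on the log2 scale (71.7 ± 5.01 CPM against 41.6 ± 1.52 CPM). NDUFA12 (0.44, SE 0.06), NDUFV3 (0.31, SE 0.05) and NDUFA7 (0.26, SE 0.06) rose less.

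The Q module, which hands electrons to ubiquinone, held core subunits that rose and the only subunit that fell. Of its 6 genes, 5 rose and 1 fell, against 57.1% and 29.9% of the tested genes of at least the lowest subunit's level. The median was 0.59 on the log2 scale. Its summed level was 586 and 580 CPM in the KO and 409 and 432 CPM in the control libraries (ratio 1.39).

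NDUFS7, which carries the last iron-sulphur cluster before ubiquinone, stood at 65.0 and 67.3 CPM in the KO libraries and at 38.5 and 36.0 CPM in the controls (log2 fold change of 0.83 with SE 0.05, adjusted p = 1.11e-14). Both KO libraries of NDUFS7 were well above both controls. NDUFS3, a core subunit with no cluster, stood at 58.4 and 54.8 CPM in the KO libraries and at 31.5 and 37.5 CPM in the controls (log2 fold change of 0.71 with SE 0.06, adjusted p = 6.09e-09). NDUFS8, which carries a pair of clusters, stood at 45.5 and 45.0 CPM in the KO libraries and at 31.0 and 34.3 CPM in the controls (log2 fold change of 0.47 with SE 0.06, adjusted p = 2.97e-08). For NDUFS3 and NDUFS8 the control libraries differed more from each other than the KO libraries did, without reaching the KO values. NDUFA5, a supernumerary subunit attached to this module, stood at 60.5 and 64.7 CPM in the KO libraries and at 54.6 and 58.0 CPM in the controls (log2 fold change of 0.15 with SE 0.05, adjusted p = 0.00647). Its groups did not overlap but nearly touched, and the call was lost without KO replicate 2 (log2 fold change 0.11, adjusted p = 0.130 by edgeR) or without control replicate 1 (0.11, adjusted p = 0.0697), with DESeq2 (adjusted p = 0.0745), and with the stricter filter (adjusted p = 0.0760 by edgeR). NDUFA9, a subunit with a dehydrogenase-like fold that binds NADPH and sits where the arms meet, stood at 87.3 and 82.6 CPM in the KO libraries and at 120 and 136 CPM in the controls (log2 fold change of -0.59 with SE 0.05, adjusted p = 4.11e-07), a ratio of 0.664. It was high in both control libraries and low in both KO libraries, without overlap.

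The NDUFA9 row shares sequence with other rows of the table, which were looked at after its value was seen. NDUFA9 lies on chromosome 12, 4649095 to 4694317, plus strand (GRCh38, GENCODE 29). AC005833.1, annotated on the same strand from 4649101 to 4774184, shares 1103 exon bases with it and extends past its end, as a read-through gene model does. AC005833.1 had 429 and 467 counts in the KO and 18 and 19 counts in the control libraries, a log2 fold change of 3.80 (SE 0.18, adjusted p = 3.82e-17 by edgeR), so it went the other way. AC005832.4, which shares 606 exon bases, had 12 and 22 counts in the KO and 0 in both control libraries. With both rows added to NDUFA9, the sum was 99.9 and 95.8 CPM in the KO and 121 and 136 CPM in the control libraries, and the fall was 0.40 rather than 0.59 on the log2 scale (SE 0.05, adjusted p = 2.88e-06). The KO libraries thus stayed below the controls for the locus as a whole. How estimated counts were divided among these overlapping models was not tested. Overlapping same-strand rows, chosen by the form of their names, were added in the same way to 7 other subunits, and no call moved. The largest shift was in NDUFB8, from 0.66 to 0.54. Same-strand rows with other names were not added. Among them was PTPMT1, which shares 721 exon bases with NDUFS3 and had 1279 and 1264 counts in the KO and 632 and 742 in the control libraries. YJEFN3, which overlaps NDUFA13, and ADCK2, which overlaps NDUFB2, were also left out. The row added to NDUFV1 had no count in any library, so its counts could not change. The row added to NDUFV2 is annotated as a processed transcript. NDUFA9's own direction and call held in all 16 alternative analyses, with log2 fold changes from -0.73 to -0.40.

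**Figure D3:**
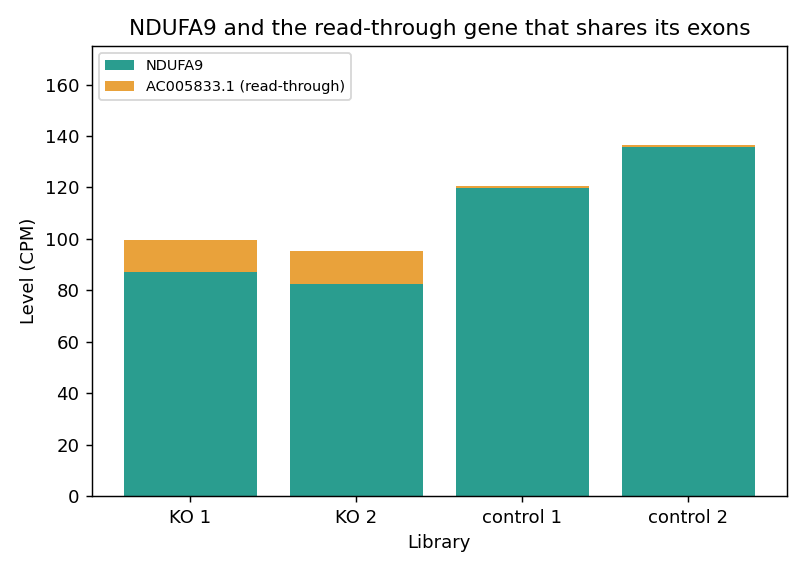
Level of NDUFA9 (CPM, linear axis from 0) in each of the 4 libraries as stacked bars, with the level of AC005833.1, the gene model that shares 1103 of its exon bases, on top. The stacked total is lower in both KO libraries than in both control libraries, and the AC005833.1 share is visible mainly in the KO libraries.

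In the proximal membrane arm, which joins the Q module to the proton pumps, 8 of 9 genes rose and NDUFA3 did not pass the test. Among tested genes of at least the lowest subunit's level 57.1% rose. The median log2 fold change was 0.56, and the summed level was 632 and 623 CPM in the KO and 394 and 408 CPM in the control libraries, the highest module ratio at 1.56. NDUFS5, a disulphide-bonded subunit on the intermembrane-space side, stood at 108 and 110 CPM in the KO libraries and at 44.3 and 42.3 CPM in the controls (log2 fold change of 1.33 with SE 0.04, adjusted p = 5.09e-21). At 2.52-fold it was the subunit with the largest difference, and its groups were far apart. NDUFA11, a membrane subunit, followed with 126 and 123 CPM against 62.6 and 65.2 CPM (0.96, SE 0.04 on the log2 scale), and NDUFC1, a small membrane subunit, with 19.5 and 18.3 CPM against 9.99 and 9.69 CPM (0.94, SE 0.09). NDUFA13, also known as GRIM-19, rose by 0.71, SE 0.04, NDUFA8, another disulphide-bonded subunit, by 0.56, SE 0.05, NDUFA10, which has a kinase-like fold, by 0.38, SE 0.04, and NDUFC2 by 0.23, SE 0.05. NDUFA1, a small single-span subunit encoded on the X chromosome, stood at 55.3 and 53.0 CPM in the KO libraries and at 48.1 and 50.0 CPM in the controls (log2 fold change of 0.14 with SE 0.05, adjusted p = 0.0111). Its groups were close without overlapping, and the call was lost without KO replicate 1 (0.12, adjusted p = 0.112 by edgeR) or without control replicate 1 (0.11, adjusted p = 0.0640), with DESeq2 (adjusted p = 0.109), and with the stricter filter, the thinned KO libraries or the threshold of 0.01. NDUFA3, another small membrane subunit, stood at 19.6 and 20.8 CPM in the KO libraries and at 18.9 and 18.8 CPM in the controls (log2 fold change of 0.10 with SE 0.08, adjusted p = 0.25). Both KO libraries of NDUFA3 were above both controls, but by less than the test could call.

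In the distal membrane arm, which holds the outer proton pumps and whose nuclear subunits are the NDUFB proteins, 10 of 11 genes rose and NDUFB2 did not pass the test. Among tested genes of at least the lowest subunit's level 57.1% rose. The median log2 fold change was 0.38, the lowest of the modules, and the summed level was 714 and 702 CPM in the KO and 523 and 537 CPM in the control libraries (ratio 1.34). A difference between modules was not tested. NDUFB6 rose most (40.7 ± 0.303 CPM against 21.8 ± 0.291 CPM; 0.90, SE 0.06 on the log2 scale), followed by NDUFB3 (60.7 ± 2.77 CPM against 33.3 ± 2.30 CPM; 0.87, SE 0.06) and NDUFB8 (99.9 ± 1.96 CPM against 63.1 ± 0.785 CPM; 0.66, SE 0.04). Middle values were those of NDUFB10 (0.46, SE 0.05) and NDUFB7 (0.41, SE 0.06), both disulphide-bonded subunits of the intermembrane-space face, of NDUFB9 (0.38, SE 0.04), the second LYR-motif protein of the complex, and of NDUFB5 (0.35, SE 0.05) and NDUFB1 (0.27, SE 0.06). The smallest rises were those of NDUFB4 (0.18, SE 0.04) and NDUFB11 (log2 fold change of 0.16 with SE 0.05, adjusted p = 0.00843), and the call of NDUFB11 was lost without KO replicate 2 (0.14, adjusted p = 0.0978 by edgeR), with DESeq2 (adjusted p = 0.101), and with the stricter filter or the thinned KO libraries. NDUFB2 stood at 27.1 and 25.7 CPM in the KO libraries and at 26.4 and 28.3 CPM in the controls (log2 fold change of -0.05 with SE 0.07, adjusted p = 0.48). Its groups overlapped, with KO replicate 1 between the controls, and with upper-quartile factors its value passed as lower (-0.19, adjusted p = 0.0137).

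The 7 core subunits all rose (median 0.71), as did 26 of 29 supernumerary subunits (median 0.41, with 1 that fell). Of the tested genes of at least the lowest subunit's level, 57.1% rose, and the median over all of them was 0.22. Whether the core and supernumerary medians differ was not tested. NDUFA4 fits the naming rule but its protein is now assigned to cytochrome c oxidase; it rose, with 57.5 and 54.1 CPM against 36.1 and 37.8 CPM (0.59, SE 0.05), and without it 33 of 36 subunits rose. NDUFAB1, the mitochondrial acyl carrier protein that is part of the complex yet falls outside the rule, rose as well, with 61.2 and 59.1 CPM against 36.1 and 35.4 CPM (0.75, SE 0.05). NDUFA4L2, a paralog of NDUFA4 outside the rule, fell (-0.65, SE 0.17).

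Levels between genes were compared per kilobase of the principal transcript. In the control libraries NDUFB9 (142 CPM per kb), NDUFA11 (119) and NDUFB4 (114) were highest on this scale, and NDUFC1 (7.83), NDUFV3 (9.78) and NDUFS1 (10.2) lowest. In the KO libraries NDUFA11 (231 CPM per kb), NDUFS5 (199) and NDUFB9 (185) were highest, and NDUFA9 (10.2), NDUFV3 (12.1) and NDUFC1 (15.0) lowest. NDUFS5 moved from rank 5 to rank 2 of 37 and NDUFA9 from rank 33 to rank 37. The order depends on the length used, at both ends. Per kilobase of coding sequence NDUFA1 was highest in the control libraries (234) and NDUFS5 in the KO libraries (342). On that scale NDUFA9 moved from rank 14 to rank 33, and NDUFV3 stood at rank 9 in the control libraries. Across the 37 subunits the log2 fold change had a Spearman rho of 0.10 with the mean level and of -0.19 with transcript length, given as descriptions over genes that share libraries.

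Exons of 22 subunit genes overlap another annotated gene, on the same strand in 13 and on the opposite strand in 17, and since the sources used here do not give the strand setting, their levels carry that uncertainty. The table also holds 54 rows named as pseudogenes of the subunits, of which 41 had no count and 12 had 1 to 12 counts over the 4 libraries. The remaining row, NDUFV2P1 on chromosome 19, named after its counts were seen, had 71 and 73 counts in the KO and 7 and 14 in the controls (log2 fold change 1.98, SE 0.35, adjusted p = 1.06e-05 by edgeR). It is 87.3% identical to NDUFV2 over 916 aligned columns, and how reads were divided between the pair was not tested.

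The 7 complex I subunits encoded in mitochondrial DNA went both ways: 3 rose and 4 fell, with TMM and upper-quartile factors and by DESeq2. They form the core of the membrane arm. Over all tested genes 36.4% rose and 39.8% fell, and among genes of at least the lowest nuclear subunit's level 57.1% and 29.9%. MT-ND1 (4439 and 4503 CPM against 5630 and 5459 CPM; -0.31, SE 0.02), MT-ND2 (-0.32, SE 0.02), MT-ND3 (-0.21, SE 0.02) and MT-ND5 (-0.13, SE 0.02) fell. MT-ND4 (12359 and 12452 CPM against 10779 and 10562 CPM; 0.22, SE 0.02) and MT-ND4L (0.19, SE 0.02), which share an mRNA, rose, as did MT-ND6 (189 and 176 CPM against 103 and 105 CPM; 0.81, SE 0.04), the only one encoded on the light strand. Their sum was 29256 and 29419 CPM in the KO and 30465 and 29800 CPM in the control libraries, a ratio of 0.974. Counts of the 37 nuclear subunits were 9.77% and 9.59% of the counts of these 7 genes in the KO libraries and 6.32% and 6.65% in the control libraries. The nuclear counts were thus a larger part of the mitochondrial ones in both KO libraries.

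Assembly factors, which build the complex and are not part of the finished enzyme, were mixed. Of 20, 10 rose, 5 fell and 5 did not pass, with a median log2 fold change of 0.25. Over all tested genes 36.4% rose and 39.8% fell, and among genes of at least the lowest subunit's level 57.1% and 29.9%. With upper-quartile factors 9 assembly factors rose and 6 fell, and by DESeq2 9 rose and 3 fell. NDUFAF2, which acts when the N module is added, rose most (28.1 and 27.8 CPM against 9.21 and 11.2 CPM; 1.45, SE 0.09), followed by TMEM70 (81.5 and 79.8 CPM against 31.3 and 32.8 CPM; 1.33, SE 0.05), which also serves ATP synthase. NDUFAF8 (0.91, SE 0.07), FOXRED1 (0.84, SE 0.04), NDUFAF4 (0.64, SE 0.05), ECSIT (0.55, SE 0.07), DMAC2 (0.37, SE 0.07), TIMMDC1 (0.35, SE 0.05), ACAD9 (0.31, SE 0.05) and NDUFAF7 (0.31, SE 0.10) rose less. TMEM126A (-0.67, SE 0.10), COA1 (-0.63, SE 0.05), TMEM186 (-0.53, SE 0.08), NDUFAF5 (-0.44, SE 0.16) and TMEM126B (-0.16, SE 0.05) fell. ECSIT, ACAD9, COA1, TMEM186, TMEM126B and NDUFAF1 belong to the mitochondrial complex I intermediate assembly complex, whose members here went both ways. NDUFAF1 (log2 fold change 0.19, adjusted p = 0.0726 by edgeR), NDUFAF3 (0.06), NUBPL (-0.01), NDUFAF6 (-0.08) and DMAC1 (-0.10) did not pass the threshold.

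Nuclear subunits of the other oxidative phosphorylation complexes rose along with those of complex I. Of 38 genes of complexes II to V, 37 rose and 1 fell, and their median was 0.78 on the log2 scale. Among tested genes of at least the lowest complex I subunit's level, 57.1% rose and 29.9% fell. The medians were 0.78 in complex II, 0.78 in complex III, 0.87 in complex IV and 0.68 in complex V, and whether they differ from that of complex I (0.47) was not tested. Examples with the smallest p were SDHA of succinate dehydrogenase (1.17, SE 0.03), UQCRQ of complex III (1.28, SE 0.04), COX6C of cytochrome c oxidase (1.05, SE 0.03) and ATP5F1A of ATP synthase (1.05, SE 0.02). CYC1, cytochrome c1, fell slightly (log2 fold change of -0.12 with SE 0.04, adjusted p = 0.0159), which DESeq2 did not call. All 13 genes on a list of general mitochondrial proteins rose (median 0.68), against 57.1% of the tested genes of at least that subunit's level. Among them were the outer membrane channel VDAC1 (1.47, SE 0.03) and the chaperonin HSPD1 (0.68, SE 0.02). With upper-quartile factors 12 of the 13 rose. These are mRNA levels, and mitochondrial content was not measured. Regulators of mitochondrial gene expression went both ways, with 7 of 11 up and 2 down. Over all tested genes the shares were 36.4% and 39.8%, and among those of at least the lowest subunit's level 57.1% and 29.9%. The coactivator PPARGC1B (0.69, SE 0.05) and the receptor ESRRA (0.40, SE 0.05) rose, and YY1 (-0.72, SE 0.03) and NRF1 (-0.34, SE 0.08) fell. With upper-quartile factors 4 regulators rose and 4 fell, and by DESeq2 4 rose and 2 fell.

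**Figure D4:**
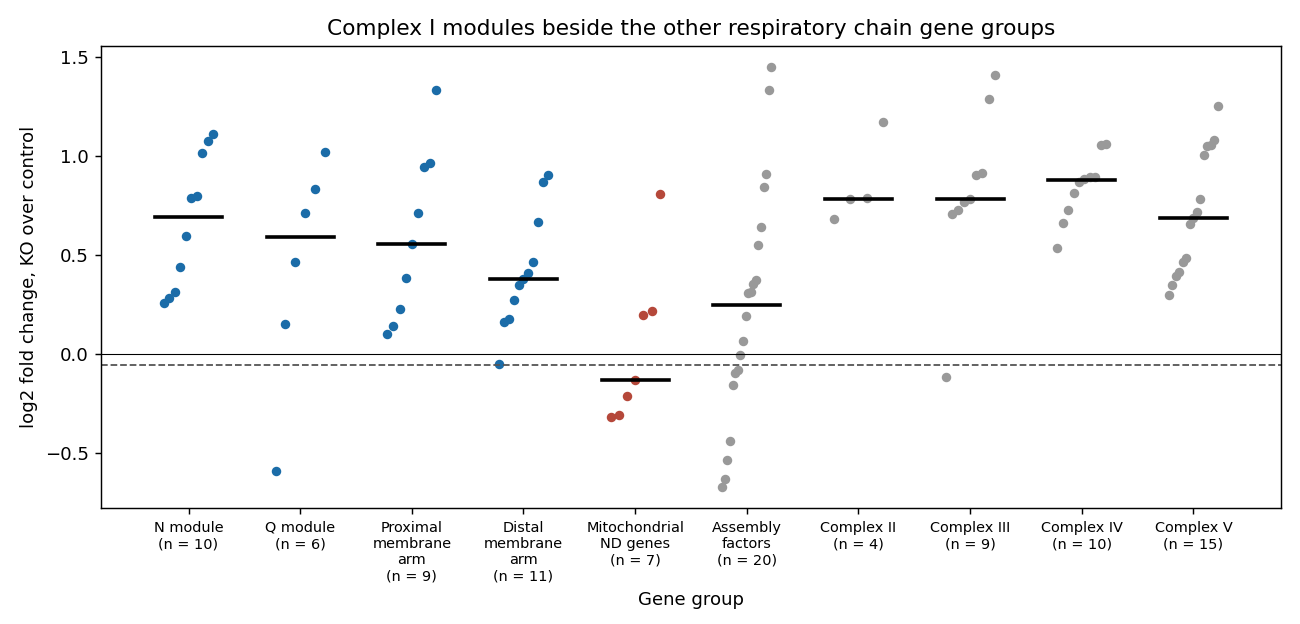
log2 fold change of every gene (points) in each group, KO over control, with the group median as a bar; blue marks the nuclear complex I modules (NDUFA4 left out), red the mitochondrial ND genes and grey the other groups, and the dashed line is the median of all tested genes (-0.06). Medians of the nuclear modules run from 0.38 to 0.69, and that of the mitochondrial ND genes lies at -0.13.

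Subunits were also set beside their neighbours on the chromosome, the 20 nearest tested protein-coding genes (10 on each side). Coding genes whose exons overlap a subunit were not left out, and AC005833.1 is among the neighbours of NDUFA9. The log2 fold change of 33 of 37 subunits was above the median of their neighbours, by a median of 0.51. Neighbours were not matched for level, and the same share for other genes was not computed. Genes of at least the lowest subunit's level had a median of 0.22, against -0.06 over all tested genes. NDUFB7, NDUFA7, NDUFA1 and NDUFA9 were below. Across the 37 subunits, their log2 fold changes went with those of the neighbours, with a Pearson r of 0.54 and a Spearman rho of 0.57, a description over genes measured in the same 4 libraries. The 3 subunits on chromosome 5, NDUFA2, NDUFS4 and NDUFS6, had neighbour medians of 0.82, 0.79 and 0.66, and the median of all tested protein-coding genes of chromosome 5 was 0.61. NDUFS5 on chromosome 1 also had a high neighbour median, of 0.69. NDUFA6 (-0.03) and NDUFA13 (-0.50) were among several subunits that rose beside neighbours whose medians were below 0. Others included NDUFB8 (-0.36), NDUFB1 (-0.36), NDUFA10 (-0.24) and NDUFA8 (-0.15). NDUFA5 (-0.55), NDUFB2 (-0.45), NDUFA3 (-0.41) and NDUFC2 (-0.56) had among the lowest neighbour medians. Their own log2 fold changes ran from -0.05 to 0.23, and NDUFA5 and NDUFC2 rose. Without the 3 genes of chromosome 5, 31 of 34 subunits rose, with a median of 0.45. The part of chromosomal position in these values was not tested.

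**Figure D5:**
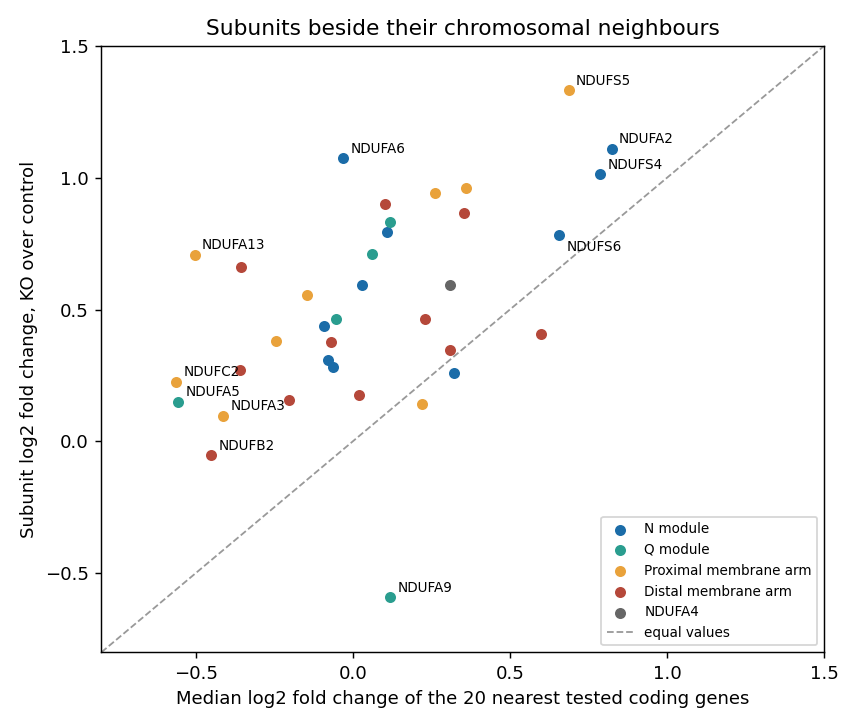
log2 fold change of 36 of the 37 subunits (vertical axis) against the median of its 20 nearest tested protein-coding genes (horizontal axis), both KO over control, with points coloured by module and a dashed line of equal values. All points but 4 lie above the line, and NDUFA9 lies farthest below it.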

How the data were processed

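Poly(A) RNA was measured in 4 libraries, 2 of BCL7A KO and 2 of control NCI-H929 cells. The values the authors deposited are estimated counts for each gene in 1 table; the submitters' processing notes name Salmon 0.12 and GRCh38. Which annotation and strand setting were used is not given in the sources used here. All values were whole numbers. All 56809 gene names match GENCODE release 29, which gave coordinates and transcript lengths, and 92 spike-in rows were left out. Genes were filtered with filterByExpr, scaled by TMM (factors 0.909 and 0.906 in the KO, 1.10 in both control libraries) and tested with edgeR 4.0.16 (robust quasi-likelihood fit, no covariates, Benjamini-Hochberg, threshold 0.05). The standard error (SE) of a log2 fold change is its size over the square root of F. Rose and fell mean past that threshold, KO against control. Each library counted as 1 replicate in the fit. Sampling noise did not cover the differences within the KO pair or the control pair (chi-square over its degrees of freedom 1.77 and 2.37). Beyond sampling noise, edgeR estimated a common coefficient of variation of 2.32% between libraries of a group. That spread is small and may be technical.

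Module, pathway and marker lists and the 6 motifs were chosen with earlier results of these data known, and lists are described by counts and medians without a set test. Subunits, assembly factors and mitochondrial ND genes are named, except 1 subunit that enters all counts, sums and fits but is not reported here; of the other pathway lists, genes ranked by p among the first 3 that rose or fell; marker genes were picked after their values were seen, and other genes are said to be where that holds. Promoter windows came from RefSeq (GRCh38.p14). Alternatives were upper-quartile and RLE factors, DESeq2 1.42.0, limma-voom (limma 3.58.1), no filter, a stricter filter (a mean of 10 counts or more, and 1 CPM in 2 libraries), a replicate block, each library left out, no robust shrinkage, a threshold of 0.01, and KO libraries thinned to 18860399 counts. A crossed replicate block and the addition of overlapping same-strand rows, picked by the form of their names, were chosen after seeing the data. The scripts were tested on simulated data in which few genes changed, as many up as down. That test does not cover the choice of scaling where most genes pass, as here.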

Additional observations from a re-analysis of the deposited data

How the results depend on the processing

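Over 16 alternatives, 568 of 592 subunit values kept direction and call, 29 of 37 subunits did so throughout, and 28 to 35 subunits rose. Upper-quartile factors made 2 subunits lower rather than 1, left 1 with a rise of at least 2-fold rather than 5, and moved the subunit median from 0.47 to 0.33. The stricter filter and thinning each left 3 such rises, and without a filter the subunit median was 0.55 and that of all tested genes -0.23 rather than -0.06. NDUFA3 turned to -0.036 with upper-quartile factors (adjusted p = 0.682 by edgeR) and passed without a filter (0.18, adjusted p = 0.0480), and NDUFB2 turned to 0.031 without a filter (adjusted p = 0.714). Calls were lost in 20 cases, by NDUFA1 under 7 alternatives, NDUFA5 and NDUFB11 under 5 each, and NDUFA7, NDUFC2 and NDUFB4 with upper-quartile factors; the cause was not tested. Leaving out each library in turn gave 32 to 34 subunits higher, 4 to 5 at least 2-fold higher, subunit medians of 0.45 to 0.53, 6004 to 6444 genes higher and 6359 to 6658 lower. The replicate numbers shared by the groups carry no stated pairing, and deviations of same-numbered libraries had a correlation of -0.20 over 9537 genes. With the replicate block 34 subunits rose and 1 fell, and with the numbers crossed 34 rose and 1 fell. The number of libraries (2 a group) and the lower depth of the controls limit the precision of the smallest changes.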
